A study of Mus musculus with 6 samples.

Results

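The Bcl2 family of apoptosis regulators was examined as 10 genes chosen by name (Bcl2, Bcl2l1, Bcl2l2, Mcl1, Bax, Bak1, Bid, Bad, Bcl2l11 and Bbc3). Of these, 9 were among the 19057 genes with a named probe. Every probe annotated to one of these symbols was taken, which gave 30 probes of the 45281 on the array. The samples were 3 of mouse spermatogonial stem cells (SSC, strain C57BL/6), the germ cells that sustain sperm production, and 3 of embryonic stem cells (ESC, labelled R1/E), pluripotent cells of the early embryo. Each sample was hybridised to its own 1-colour Illumina bead array. All ESC samples carry the same line name, and strain differs between the groups together with cell type, so strain and cell type cannot be told apart here. Nothing in the labels says whether the numbered replicates came from separate animals or cultures. The p-values therefore reflect the spread among these particular samples, and that spread may be technical. No agent, sort, gate or age is given in the labels used here.

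Proteins of the Bcl2 family decide whether the outer membrane of the mitochondrion is opened, which releases cytochrome c and starts the caspase cascade of intrinsic apoptosis. Bax and Bak1 form the pores, the pro-survival members Bcl2, Bcl2l1 (Bcl-xL), Bcl2l2 (Bcl-w) and Mcl1 hold them in check, and the BH3-only members Bid, Bad, Bcl2l11 (Bim) and Bbc3 (Puma) relay death signals by binding the pro-survival members and, for some, Bax and Bak1. In the mouse, loss of Bcl2l2 leads to male sterility with loss of germ cells, and embryos without Mcl1 die around implantation.

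Values are log2 intensities after background correction and quantile normalization. A probe counted as detected on an array where its detection p was under 0.01, and it was kept when it was detected on at least 3 of the 6 arrays. A difference is SSC minus ESC on the log2 scale, and a call is an adjusted p under 0.05 in a limma fit over all 17435 kept probes. Of the 10 members, 8 had a kept probe and were measured. Bak1 had 1 probe, detected on no array, and Bax, for which no probe is named in the annotation used here, was not analysed. A gene was represented by its brightest kept probe.

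Of the 8 measured members, 7 passed the test, with 3 higher and 4 lower in SSC, and 1 did not. Among all 10024 measured genes, 74.4% were called, 37.9% higher and 36.5% lower, so a call by itself sets no member apart. Differences of at least 2-fold were called for 4 members, 1 higher (Bcl2l2) and 3 lower (Mcl1, Bid and Bbc3), against 33.2% of all genes, 17.5% higher and 15.8% lower. Detection on all 3 SSC arrays and on no ESC array was seen for 1 member, Bcl2, against 9.11% of all genes, and the opposite for 0 members against 4.05%. The direction followed the members' roles in part. Among pro-survival members Bcl2l2, Bcl2 and Bcl2l1 were higher and Mcl1 was lower, and among BH3-only members Bbc3, Bid and Bcl2l11 were lower and Bad was not called. The median difference was 0.72 over the 4 pro-survival members (0.43 with Bcl2 at its bound, given below) and −0.80 over the 4 BH3-only members, against 0.0036 over all genes. Both medians were smaller in size without background correction. There the middle values were 0.28 (Bcl2) and 0.19 (Bcl2l1) among pro-survival members, and −0.87 (Bid) and −0.24 (Bcl2l11) among BH3-only members. These medians describe few genes and were not tested.

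The SSC samples also carried markers listed for cell types other than spermatogonia, and the source of that signal was not tested. Of 12 markers of undifferentiated spermatogonia, 10 were higher and 0 lower in SSC, and all 10 embryonic stem cell markers were lower, with Nanog, Esrrb and Tdgf1 undetected on the SSC arrays. Of 8 measured Sertoli cell markers 6 were higher, 1 was lower and 1 not called, and the summed linear level of the 9 with a probe was 2940 to 3176 on the SSC arrays and 264.8 to 294.8 on the ESC arrays. Sox9, Amh, Fshr and Gata4 were detected on every SSC array and on no ESC array. Of 11 fibroblast and peritubular myoid markers 10 were higher, 0 lower and 1 not called, with summed levels of 9230 to 10315 in SSC and 3555 to 3816 in ESC. The gene not called, Acta2, was the brightest of the list in ESC (mean log2 11.49, against 11.27 in SSC) and made up most of the ESC sum. Dcn, Col1a2, Col3a1, Col6a1, Myh11 and Lum were detected on every SSC array and on no ESC array. Macrophage markers were near background, with 3 of 4 measured genes higher and 0 lower, Ptprc, Adgre1 and C1qa undetected on all arrays, and summed levels of 258.7 to 273.2 in SSC and 197.5 to 200.1 in ESC. Of 4 measured Leydig markers 3 were higher and 1 lower, and the list summed to 610.5 to 785.2 in SSC and 325.2 to 331.5 in ESC, with Star, Hsd3b1 and Hsd3b6 undetected throughout. The part of these cells in the differences below was not tested, and in bulk samples fewer cells of a type and less RNA per cell cannot be told apart.

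**Figure D1:**
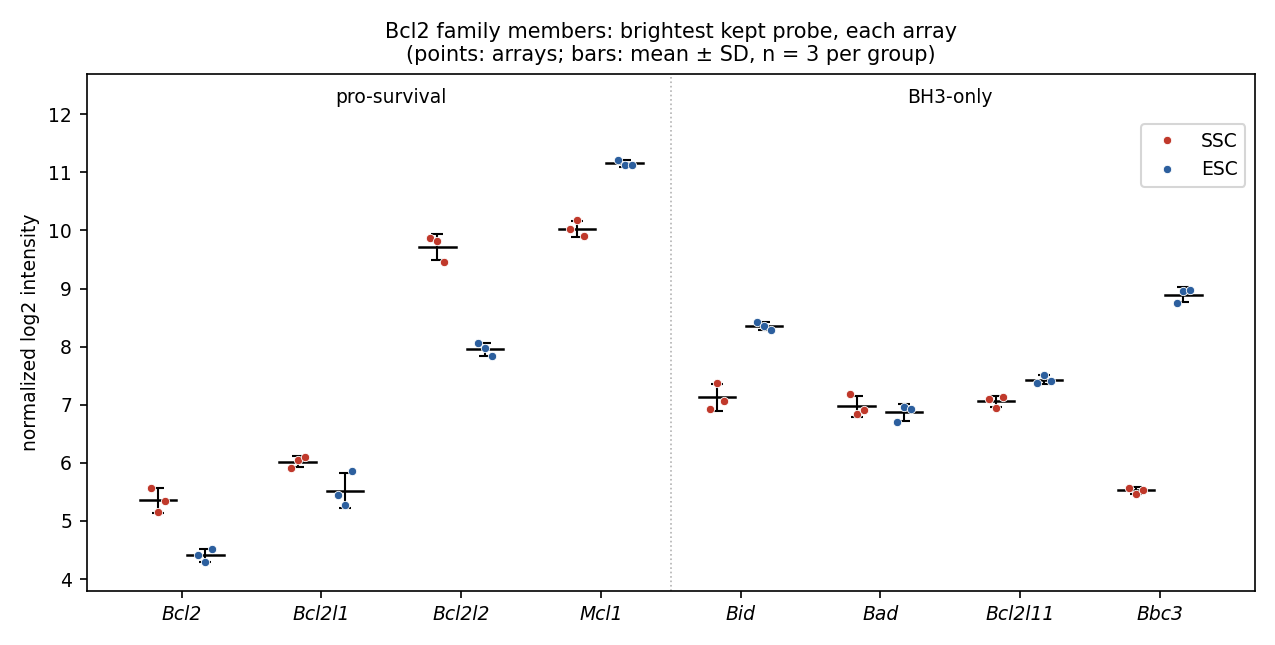
Normalized log2 intensity (vertical axis) of the brightest kept probe of the 8 measured members, with SSC (red) left of ESC (blue) for each gene; points are arrays and bars the mean ± SD (n = 3). The groups are apart for 7 members and overlap for Bad, and Bbc3 shows the widest gap.

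The stretches before a start site of Bcl2l2 and Bbc3 are shown because these members had the largest difference in each direction among the measured members. Each is the 250 bases before the most upstream start site in the promoter table used here (RefSeq, GRCm38.p6), on the plus strand, at chr14:54883175-54883424 for Bcl2l2 and chr7:16309333-16309582 for Bbc3. The annotated spans of both genes begin further upstream, inside the Bcl2l2 window and before the Bbc3 window, so other transcripts can start elsewhere. Capitals mark the GC box GGGCGG, read on both strands, where overlapping matches run together.
Bcl2l2: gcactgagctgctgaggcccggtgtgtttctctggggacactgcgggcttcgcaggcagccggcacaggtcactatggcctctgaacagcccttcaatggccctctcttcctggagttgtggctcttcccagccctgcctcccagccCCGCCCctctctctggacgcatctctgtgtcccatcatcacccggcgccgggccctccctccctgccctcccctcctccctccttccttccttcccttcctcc
Bbc3: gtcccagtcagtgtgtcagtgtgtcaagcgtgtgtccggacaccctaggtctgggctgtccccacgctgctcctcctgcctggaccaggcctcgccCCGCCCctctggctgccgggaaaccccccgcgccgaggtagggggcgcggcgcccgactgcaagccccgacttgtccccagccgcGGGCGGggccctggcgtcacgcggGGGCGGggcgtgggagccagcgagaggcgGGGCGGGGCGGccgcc
A GC box was found 1 time in the Bcl2l2 window and 5 times in the Bbc3 window. It was present in 8 of the 10 members' windows, the exceptions being Bcl2l1 and Bak1, and in 33.0% of 27025 promoters of the same length. CpG dinucleotides numbered 9 in the Bcl2l2 window and 27 in that of Bbc3, against a median of 6 over all promoters. The FOXO motif GTAAACA was found in 1 member window, that of Bcl2l11, and in 3.06% of all promoters. A p53 half-site, searched as a degenerate motif of the p53 consensus, was found in 1 member window, that of Bax, and in 7.16% of all promoters. The box CCAAT was found in 1 member window, that of Bcl2l11, and in 34.5% of all promoters. No binding or methylation was measured, and a match is a description of letters only.

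Bcl2l2, which encodes the pro-survival protein Bcl-w, rose the most of the members. The gene lies at chr14:54883366-54890858 (GRCm38.p6). Its brightest probe read 9.86, 9.82 and 9.45 on the SSC arrays and 8.06, 7.97 and 7.83 on the ESC arrays. Every SSC value was above every ESC value. The difference was 1.76 ± 0.14 (SE, n = 3 per group), or 3.38-fold (adjusted p = 1.14e-07). A second kept probe gave 1.65 ± 0.12 (adjusted p = 5.54e-08), from 8.29, 8.39 and 8.19 in SSC against 6.77, 6.60 and 6.55 in ESC. In the deposited intensities before normalization the brightest probe already stood apart, at 1007, 1078 and 781.6 in SSC against 334.5, 315.9 and 286.7 in ESC. Of all measured genes, 7.51% had a larger positive difference. The other 3 Bcl2l2 probes were detected on no array.

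Bcl2, the founding pro-survival member, was near the background of these arrays. It is annotated at chr1:106538176-106714290 in GRCm38.p6. Its brightest probe read 5.57, 5.15 and 5.34 in SSC and 4.42, 4.29 and 4.51 in ESC, where it was detected on no array. The deposited intensities were 138.3, 128.5 and 129.3 in SSC against 106.1, 103.3 and 107.2 in ESC, and the detection p in ESC lay between 0.127 and 0.561. Because ESC gives only a bound, Bcl2 was at least 1.28-fold higher in SSC on the background-corrected scale (adjusted p = 3.05e-05 for the fitted difference of 0.95 ± 0.13, SE). This fold sets the SSC mean against the lowest signal among detected probes on each ESC array. It and the like folds below are bounds on that scale only. The ratio of the group means of this probe was 1.25 in the deposited intensities and 1.21 in the authors' processed table. The other 2 kept probes were also called higher, with bounds of at least 1.32-fold and 1.16-fold and adjusted p of 1.12e-04 and 4.36e-04. The fitted difference was 0.28 without background correction and 0.44 at a larger offset. The other 6 Bcl2 probes were detected on no array.

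Bcl2l1, which encodes Bcl-xL, was modestly higher in SSC. The gene lies at chr2:152758732-152833803 (GRCm38.p6). The brightest probe read 5.91, 6.05 and 6.10 in SSC and 5.45, 5.27 and 5.85 in ESC, so the highest ESC array came close to the lowest SSC array without passing it. The difference was 0.50 ± 0.15 (SE, n = 3 per group; adjusted p = 0.00914). A second kept probe, detected on no ESC array, was at least 1.10-fold higher (adjusted p = 0.00626). The call of the brightest probe was lost without ESC replicate 2 (0.37, adjusted p = 0.0518), and its difference was 0.19 without background correction and 0.82 under scaling on array medians. The remaining 2 probes were each detected on 1 SSC array and on no ESC array.

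Mcl1, a short-lived pro-survival protein that early embryos need, went against the other pro-survival members. It is annotated at chr3:95656944-95663179 in GRCm38.p6. It read 10.02, 10.18 and 9.90 in SSC and 11.21, 11.12 and 11.12 in ESC. All SSC values lay below all ESC values. The difference was −1.12 ± 0.12 (SE, n = 3 per group), or 2.18-fold lower in SSC (adjusted p = 2.25e-06). It rests on the single Mcl1 probe, whose deposited intensities were 1120, 1338 and 1010 in SSC against 2708, 2493 and 2354 in ESC. Across all alternatives the difference lay between −1.25 and −1.06.

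Pore formation could not be compared. Bax lies at chr7:45461695-45466903 and Bak1 at chr17:27019812-27028627 (GRCm38.p6). The Bak1 probe read 4.27, 4.60 and 4.23 in SSC and 4.26, 4.37 and 4.50 in ESC, with the groups overlapping and no array above the detection limit. This says only that the probe was not well above background in either cell type.

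Bbc3, the BH3-only protein Puma and a target gene of p53, had the largest difference of the members. Its RefSeq span is chr7:16308398-16318334 (GRCm38.p6). It read 5.57, 5.46 and 5.54 in SSC and 8.75, 8.96 and 8.97 in ESC, detected on all 6 arrays. The groups were far apart relative to their SDs of 0.055 in SSC and 0.13 in ESC. The difference was −3.37 ± 0.12 (SE, n = 3 per group), or 10.3-fold lower in SSC (adjusted p = 5.21e-11). Only 102 of the 10024 measured genes (1.02%) had a more negative difference. The deposited intensities were 138.3, 139.3 and 136.3 in SSC against 504, 559.1 and 547.4 in ESC, and the difference was −2.08 both without background correction and in the table the authors processed. The ratio of the group means, SSC over ESC, was 0.26 in the deposited intensities. The SSC values were near background, at the level of Bcl2 in SSC, so the size of the fold depends on how background is handled. Of the other Bbc3 probes, 1 was detected on 2 ESC arrays and on no SSC array, and 1 on no array.

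Bid, which links death receptors to the mitochondrion once caspase-8 has cut it, fell as well. The gene lies at chr6:120893119-120917062 (GRCm38.p6). It read 6.93, 7.38 and 7.07 in SSC and 8.43, 8.36 and 8.29 in ESC, with no overlap. The difference was −1.23 ± 0.13 (SE, n = 3 per group), or 2.35-fold lower in SSC (adjusted p = 2.84e-06). The deposited intensities were 219.9, 287.1 and 232.3 in SSC against 416.2, 389.5 and 363.9 in ESC. Over the alternatives the difference lay between −1.38 and −0.87. It was under 2-fold without background correction and in the authors' table (−0.87 in both), and under scaling on array medians (−0.99). Its second probe was detected on no array.

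Bcl2l11, which encodes Bim, was lower by a small margin that depended on the scaling. It is annotated at chr2:128126038-128162547 in GRCm38.p6. Its brightest probe read 7.10, 6.95 and 7.13 in SSC and 7.37, 7.51 and 7.41 in ESC, a difference of −0.37 ± 0.12 (SE, n = 3 per group; adjusted p = 0.0112). A second kept probe was at −0.47 ± 0.11 (adjusted p = 0.00201), while 1 more overlapped between the groups and was not called (−0.12 ± 0.14, adjusted p = 0.478). In the deposited intensities the brightest probe overlapped, at 235.6, 237.8 and 237.6 in SSC against 235.4, 249.4 and 233 in ESC. The call was lost under scaling on array medians (−0.061, adjusted p = 0.666) and without ESC replicate 2 (−0.33, adjusted p = 0.0557). The fourth Bcl2l11 probe was detected on 1 ESC array.

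Bad, a BH3-only protein held inactive by survival kinases and 14-3-3 proteins, was the measured member without a call. The gene lies at chr19:6941861-6951905 (GRCm38.p6). It read 7.18, 6.83 and 6.91 in SSC and 6.70, 6.97 and 6.93 in ESC, with the groups overlapping. The difference was 0.11, with a 95% confidence interval of −0.18 to 0.40 (adjusted p = 0.479), which leaves room for a modest change either way. Under scaling on array medians it was called higher (0.45, adjusted p = 0.00612), and in that setting the split of members was 4 higher and 3 lower. Over all genes that setting called 4497 higher and 3031 lower, against 3798 and 3662 as reported. That scaling moved the median of all genes by 0.19, and Bad was 0.26 above that median. In the deposited intensities the groups did not overlap for Bad, at 243.3, 225.9 and 217.7 in SSC against 178.8, 196.8 and 189.5 in ESC.

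**Figure D2:**
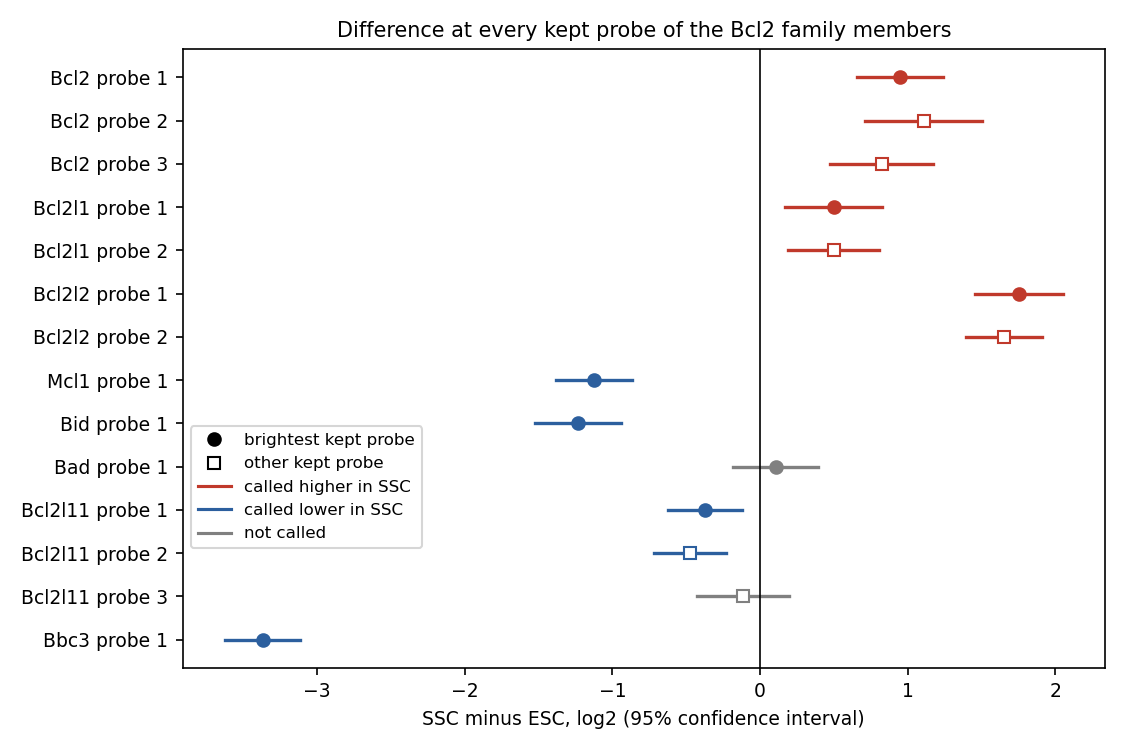
SSC minus ESC on the log2 scale (horizontal axis) with 95% confidence intervals for each of the 14 kept probes of the members, filled circles for the brightest probe of a gene and open squares for the others. Of the 14 probes, 7 were called higher, 5 lower and 2 were not called; kept probes of 1 gene never pointed to opposite directions.

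Probes of the same gene share their target, so the 14 kept probes are not 14 separate results. At 7 of 8 measured members the 3 SSC values and the 3 ESC values did not overlap, against 76.9% of all genes. Of the 30 probes of members 46.7% were kept, against 43.1% of all probes with 1 gene symbol. Calls were made for 12 of the 14 kept probes, against 73.6% of all kept probes. Of the 16 probes that were not kept, 12 were detected on no array and 4 on 1 or 2 arrays.

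Further genes outside the 10, listed as relatives or interactors of the Bcl2 family, also split between the directions. Of 16 listed, 8 were measured, 4 higher, 3 lower and 1 not called. Over all measured genes 37.9% were higher and 36.5% lower. Bok, a relative of Bax and Bak1, was higher by 2.18 ± 0.14 (SE; adjusted p = 1.91e-08), with its other kept probe at 0.97. Bnip2 was higher by 2.10 ± 0.14, Bcl2l12 by 0.69 ± 0.17 (0.32 without background correction) and Bnip3l, a receptor for mitophagy, by 0.49 ± 0.13. Bmf, a further BH3-only gene, was lower (−1.53 ± 0.14, adjusted p = 7.03e-07), and its difference was −0.70 without background correction. Pmaip1, the BH3-only partner of Mcl1 known as Noxa, differed by −0.46 ± 0.12 (adjusted p = 0.00388) and was detected on 1 of 3 SSC arrays, and Bcl2l13 differed by −0.33 ± 0.13 (adjusted p = 0.0397). The calls of Pmaip1 and Bcl2l13 were lost under scaling on array medians, at −0.27 and −0.059. That of Pmaip1 was also lost without background correction and in the authors' table (−0.12 in both). That of Bcl2l13 was also lost under cyclic loess (−0.27) and without the detection filter (−0.33, adjusted p = 0.0759). It was lost too when any single array other than ESC replicate 3 was left out (−0.34 to −0.21). Bcl2a1b, Bcl2a1d, Bcl2l10, Hrk, Bcl2l14, Bcl2l15 and Bnip3 had no kept probe.

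Downstream of the pore, 11 of 16 genes of the apoptosome and caspases were measured, of which 5 were higher and 2 lower while 4 had no call (median 0.086). The shares over all measured genes were 37.9% higher and 36.5% lower. Casp8, the initiator caspase of death receptors that cuts Bid, was higher by 1.69 ± 0.13 (SE; adjusted p = 6.76e-08) and detected on 1 of 3 ESC arrays. Without background correction its difference was 0.69. Diablo, which frees caspases from their inhibitors, was higher by 1.33 ± 0.13 and Cycs, the somatic cytochrome c, by 0.85 ± 0.12. The other kept probe of Cycs was at 0.48. Casp2 was higher by 1.56 ± 0.12, but its other kept probe was at −0.18. Apaf1, the scaffold of the apoptosome, fell (−1.20 ± 0.13, adjusted p = 3.52e-06), with its 3 kept probes between −1.27 and −1.20. Parp1, a caspase substrate in DNA repair, fell (−0.38 ± 0.12, adjusted p = 0.0101), with 3 kept probes from −1.26 to −0.38. Its difference was −0.73 as the mean of these probes and −0.74 under scaling on array medians.

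Caspase inhibitors of the IAP family were measured for 4 of 9 genes, 1 higher and 3 lower. For this list and the death receptor list below, the shares over all measured genes were 37.9% higher and 36.5% lower. Birc5 (survivin), which also serves in cell division, differed by −1.45 ± 0.13 (adjusted p = 4.77e-07). Birc7, undetected in SSC, was at least 2.30-fold lower on the background-corrected scale, while its difference was −0.90 at an offset of 50 and −0.62 without background correction. Birc2 was higher by 0.84 ± 0.12 (adjusted p = 4.14e-05), with 4 kept probes from 0.14 to 1.06. Birc6 was at −0.40 ± 0.14 (adjusted p = 0.0177), with kept probes from −0.49 to 0.60. The groups overlapped for Birc6. Its call was lost without background correction and in the authors' table (−0.14 in both), under scaling on array medians (−0.092) and as the mean of its kept probes (−0.098). It was also lost without any of ESC replicates 1 and 2 and SSC replicates 1 and 3. In the death receptor list 7 of 12 were measured, of which 4 were higher and 1 lower while 2 had no call (median 0.81). Cflar, an inhibitor of Casp8 detected on 2 of 3 ESC arrays, was higher by 1.87 ± 0.13 (adjusted p = 4.15e-08), and the adaptor Fadd by 0.81 ± 0.13. The difference of Cflar was 0.81 without background correction. The receptor gene Tnfrsf1a, undetected in ESC, was at least 2.02-fold higher on the background-corrected scale, while its difference was 0.66 at an offset of 50 and 0.40 without background correction. Traf2 was higher by 0.82 ± 0.13, or 0.29 without background correction. Tnfrsf10b, a TRAIL receptor, was at −0.34 ± 0.13 (adjusted p = 0.0271), with 3 kept probes from −1.22 to −0.34 and a mean over them of −0.87 (adjusted p = 9.21e-06). The call of the brightest probe was lost under scaling on array medians (−0.043) and cyclic loess (−0.27). It was also lost without any of ESC replicates 1 and 2 and SSC replicates 1 and 2.

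Genes that act on the members were measured for 22 of 27, of which 5 were higher and 14 lower while 3 had no call (median −0.57). Over all measured genes 37.9% were higher and 36.5% lower (median 0.0036). Foxo3 and Foxo1, transcription factors known to induce Bcl2l11 and Bbc3, were higher by 1.24 ± 0.13 and 1.04 ± 0.12 (SE; adjusted p = 1.42e-06 and 5.41e-06), while the other kept probe of Foxo1 was at 0.26. Without background correction they were at 0.60 and 0.69. Trib3, a stress-response gene, was lower (−3.02 ± 0.13, adjusted p = 4.28e-10), as was Pim3, a kinase of the family that phosphorylates Bad (−2.03 ± 0.14, adjusted p = 2.87e-08). The 3 kept probes of Trib3 ran from −3.02 to −1.68. The channel genes of the outer membrane differed in direction. Vdac3 was higher by 1.17 ± 0.13 (adjusted p = 2.86e-06). Vdac1 was at −1.34 ± 0.11 (adjusted p = 2.46e-07) and Vdac2 at −1.02 ± 0.13 (adjusted p = 1.01e-05). Mapk8, the stress kinase JNK1, was at −1.67 ± 0.14, but its other kept probe was at 0.45. Bag1, a partner of Bcl2, was higher by 0.64 ± 0.11 (adjusted p = 1.79e-04), a call lost under scaling on array medians (0.15).

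**Figure D3:**
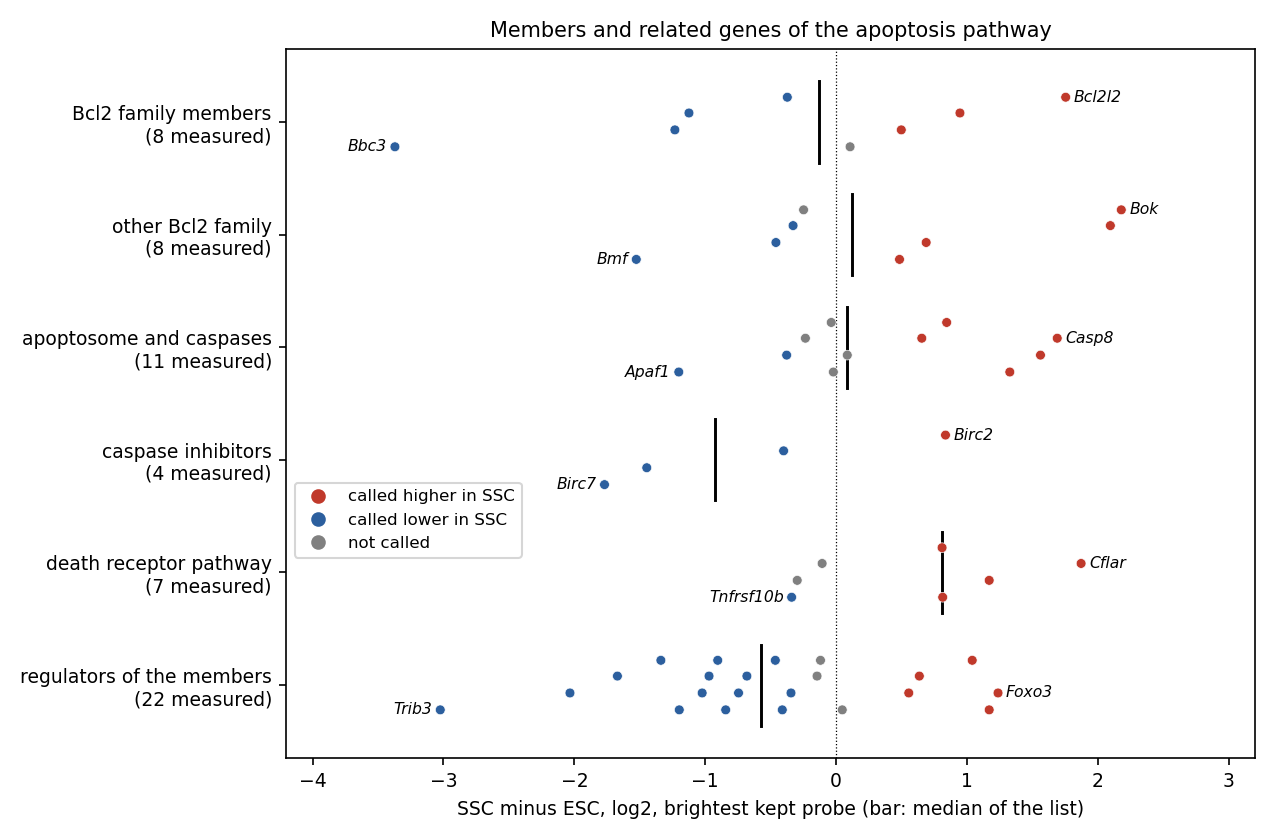
SSC minus ESC on the log2 scale (horizontal axis) of each measured gene, by list, with the members on top, black bars at the list medians and colours for the call. Members run from −3.37 (Bbc3) to 1.76 (Bcl2l2), and the regulators are the longest list, with 22 measured genes. The list labelled other Bcl2 family also holds interacting genes such as Bnip2.

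The sizes of the differences depended on the handling of background more than their directions did. Without background correction 4 of the 7 called members had a difference more than 1.5 times smaller, namely Bbc3 (−2.08), Bcl2 (0.28), Bcl2l1 (0.19) and Bcl2l11 (−0.24), and the authors' table gave the same 4. With an offset of 50 in place of 16 this held for 2 members. Of the 30 related genes named above, not counting Vdac2, 13 had a difference more than 1.5 times smaller without background correction. They were Bcl2l12, Bmf, Pmaip1, Casp8, Birc6, Birc7, Cflar, Tnfrsf1a, Traf2, Tnfrsf10b, Foxo1, Foxo3 and Mapk8. None of the 8 measured members changed sign under any alternative run.

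**Figure D4:**
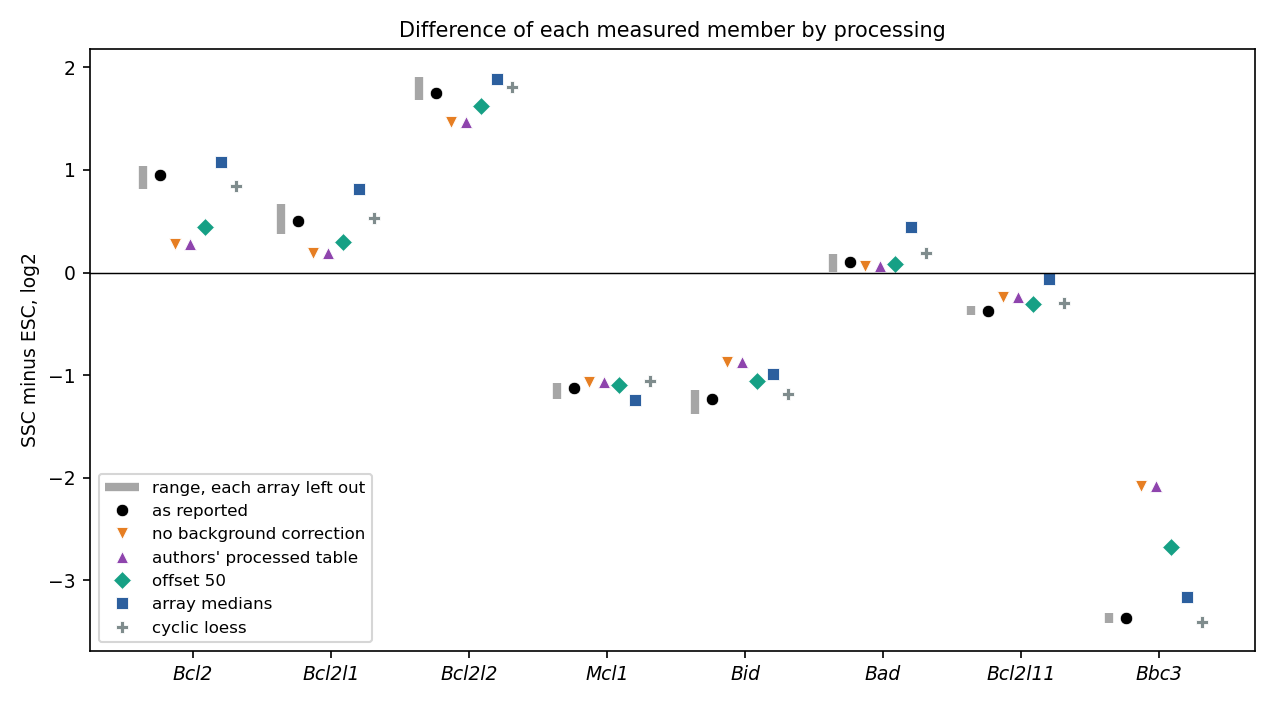
SSC minus ESC on the log2 scale (vertical axis) of each measured member under 6 ways of processing, with grey bars for the range when each array is left out in turn. Bbc3 moves between −3.40 and −2.08 across the 6 ways, and Bcl2l11 comes close to 0 under scaling on array medians.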

How the data were processed

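Total RNA was extracted with Trizol, column-cleaned and turned into biotin-labelled cRNA, per the labels' protocols. The deposited table of intensity values holds 1 linear brightness per probe and array with background still in it, beside deposited detection p-values. The submitters' processing notes list GenomeStudio and give no version. A further deposited table holds the authors' processed intensity values, whose steps are not given in the sources used here. It served as an alternative. No value column lacked a sample (0). Detected probes numbered 16505 to 17211 on SSC arrays and 15242 to 15613 on ESC arrays, and the number of arrays limits the precision. Correlations were 0.989 to 0.993 within a group and 0.784 to 0.795 between the groups.

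Background was corrected by normexp from the detection p-values with an offset of 16, followed by quantile normalization and log2 (limma 3.58.1, R 4.3.3). lmFit and eBayes were run on the 17435 kept probes with group as the only term and Benjamini-Hochberg adjustment over all of them. The fit was tested on simulated data with 50 changed probes at each size. It called 9 of those changed by 0.5 on the log2 scale, 40 at 1, 50 at 2 and 50 at 4, and 2 of 17235 unchanged probes. Most simulated probes were unchanged, whereas 73.6% of kept probes were called in the data, so these rates do not carry over. A probe undetected on every array of a group gives only a bound there, which sets the bright group's mean against the lowest detected signal on each array, or the probe itself where that is higher. Probes were named through the platform annotation, in which 34885 had 1 symbol, 18 several and 10378 are unnamed here, and 34807 matched RefSeq (GRCm38.p6) by gene identifier.

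The members and lists were chosen with earlier results of these data known. Every member is named. From each other list up to 4 called genes per direction with the largest differences are named, and genes of a list that were not measured. Vdac2 is named in addition, beside Vdac1 and Vdac3. Alternatives were no background correction, an offset of 50, array medians, cyclic loess, the authors' table, a looser detection limit (0.05), no filter or a stricter one (all 6 arrays), averaging a gene's kept probes, an eBayes prior that is robust and trended, a threshold of 0.01, the replicate block and leaving out each array, with probe set and brightest probe kept.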

Additional observations from a re-analysis of the deposited data

How the results depend on the processing

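Over the alternatives 7 members were called in most, 6 at an adjusted p under 0.01, where Bcl2l11 was lost, 6 with detection on all 6 arrays, which leaves Bcl2 out, and 5 to 7 when each array was left out, with 5 without ESC replicate 2. The count over all genes was 7038 to 7312 when each array was left out, against 7460. Of all measured genes, 65.2% were called at an adjusted p under 0.01 and 72.5% with detection on all 6 arrays. The number of genes called at least 2-fold was 3331, against 2223 at an offset of 50, 2159 when every array had to detect the probe, and 1544 both in the authors' table and when background was not corrected. Of the members, 4 were called at least 2-fold, against 3 both in the authors' table and when background was not corrected, where Bid fell below 2-fold. For members, the authors' table and no background correction gave differences within 0.00024 of each other. Same-numbered SSC and ESC arrays did not deviate strongly together (correlations of −0.14, −0.068 and 0.030). These values cannot tell whether same-numbered samples were handled together, which the labels do not state. With the replicate block 7 members and 7348 genes were called, and no member gained or lost its call. Of the 52 measured related genes, 19 were called higher and 23 lower, or 18 and 17 under scaling on array medians. Over all 10024 measured genes 3798 were higher and 3662 lower, or 4497 and 3031 under that scaling. No slide or scan date was given, so no such block was run. Bcl2 and the second Bcl2l1 probe lie at the detection limit, so the size of their change has little signal over background behind it.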
